A study of Mus musculus with 16 samples.

Results

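The loci of 10 genes of the Notch pathway were examined for accessible chromatin in mouse embryonic stem (ES) cells. They are the effector Rbpj, the receptors Notch1, Notch2 and Notch3, the ligands Dll1, Dll3 and Jag1, and the target genes Hes1, Hes5 and Hey1. A locus holds each accessible region whose centre lies in the gene body or within 100 kb of an annotated transcription start site (TSS) of the gene, by GENCODE M21 on the mouse build mm10. By this rule 160 of the 81132 regions in the deposited list belong to the 10 loci, from 7 regions each at Jag1 and Hey1 to 27 at Rbpj.

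ATAC-seq, in which a transposase cuts open DNA and tags the ends for sequencing, was performed on SBROS cells, a line made from CGR8 mouse ES cells that also carries reporters of SOX1 and BRA. In these cells SOX2 is fused to a SNAP-tag on both alleles and OCT4 to a HALO-tag on 1 allele, so that both proteins can be stained alive. Cells grown with serum, LIF, 3 µM CHIR99021 and 0.8 µM PD184352 were stained with 100 nM TMR for OCT4, 12 nM SiR647 for SOX2 and 1.62 µM Hoechst for DNA. Cells in G1 phase were then sorted into SHOH (SOX2 high, OCT4 high), SHOL (SOX2 high, OCT4 low), SLOH (SOX2 low, OCT4 high) and SLOL (SOX2 low, OCT4 low), with 3 libraries of each and 12 in all, from 1 engineered line. The deposited list pools the 12 libraries and gives positions without a read count, so the depth behind a region is unknown and no error between replicates can be given. For the same reason the 4 populations were not compared, and a region may come from any number of libraries.

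Notch receptors are cut when a Delta or Jagged ligand on a neighbouring cell binds them, and the released intracellular domain enters the nucleus. There it joins the DNA-binding protein RBPJ and a Mastermind coactivator and switches on genes such as those of the HES and HEY repressors, whereas RBPJ without it recruits co-repressors. In early mouse development the pathway is known for its part in neural fate choice, and Notch activity has been linked to the entry of ES cells into the neural lineage.

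RBPJ reads the motif GTGGGAA, and a pair of such motifs facing each other is known as a binding site for a dimer of the Notch complex, so the sequences of the loci were searched for these letters and for those of SOX2 and OCT4. All motifs were searched on both strands of each region. The RBPJ motif occurred in 9.48% of the 81132 regions, and at least 2 of them in 0.707%. The facing pair was GTGNGAA, 10 to 25 bases and then TTCNCAC, which occurred in 46 regions (0.0567%). GTGGGAA is itself a case of GTGNGAA, so the RBPJ motif and the pair overlap. The SOX motif was CCATTGT or CCTTTGT (16.02% of regions), and the octamer that OCT4 reads was ATGCAAAT (2.66%). The composite motif was CATTGT or CTTTGT, 1 base, and an octamer with at most 1 mismatch (96 regions, 0.118%), and it can overlap a SOX motif. A match describes the letters of a region and does not show that a factor is bound there.

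Of the 2 regions of the loci with a facing pair, only that of Hes1 is shown. The sequences of Hes1 and Hes5 were chosen because they hold a facing pair and repeated RBPJ motifs. Each is given 5′ to 3′ on the strand of its gene, read from the GRCm38.p6 reference of RefSeq, which has the coordinates of mm10. Capitals mark RBPJ motifs, and at Hes1 both arms of its facing pair.
Hes1 promoter, chr16:30065095-30065339, plus strand: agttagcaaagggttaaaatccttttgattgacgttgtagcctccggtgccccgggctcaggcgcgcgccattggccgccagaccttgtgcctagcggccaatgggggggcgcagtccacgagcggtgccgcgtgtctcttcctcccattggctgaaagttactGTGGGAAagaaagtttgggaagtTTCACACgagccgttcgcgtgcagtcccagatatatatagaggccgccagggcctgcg
Hes5 promoter, chr4:154960637-154960896, plus strand: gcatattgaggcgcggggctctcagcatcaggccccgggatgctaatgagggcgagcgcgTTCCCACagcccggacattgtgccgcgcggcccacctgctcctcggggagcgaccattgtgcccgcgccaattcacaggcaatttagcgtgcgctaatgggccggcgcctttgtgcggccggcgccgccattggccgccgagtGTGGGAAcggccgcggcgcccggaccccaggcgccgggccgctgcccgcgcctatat
Hes5 nearest upstream region, chr4:154958396-154958591, plus strand: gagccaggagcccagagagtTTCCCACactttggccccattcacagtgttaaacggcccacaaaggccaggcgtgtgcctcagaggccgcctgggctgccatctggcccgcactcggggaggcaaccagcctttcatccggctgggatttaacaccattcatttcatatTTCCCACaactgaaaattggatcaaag
Hes5 middle upstream region, left motif, chr4:154952774-154952820, plus strand: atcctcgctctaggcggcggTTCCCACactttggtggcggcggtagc
Hes5 middle upstream region, right motif, chr4:154953117-154953163, plus strand: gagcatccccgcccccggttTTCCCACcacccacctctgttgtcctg
Hes5 far upstream region, chr4:154946496-154946542, plus strand: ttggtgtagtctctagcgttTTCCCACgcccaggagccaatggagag
The arms of the pair at Hes1 are 16 bases apart. In the Hes5 promoter the motifs point in opposite directions and a pair of SOX motifs in lower case lies between them.

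The effector, receptors and ligands held fewer RBPJ motifs per kb, and the following sequences show those in regions closest to these members. Capitals mark RBPJ motifs, the octamer or the composite motif.
Dll1 upstream region, RBPJ motif then composite motif, chr17:15380808-15381033, minus strand: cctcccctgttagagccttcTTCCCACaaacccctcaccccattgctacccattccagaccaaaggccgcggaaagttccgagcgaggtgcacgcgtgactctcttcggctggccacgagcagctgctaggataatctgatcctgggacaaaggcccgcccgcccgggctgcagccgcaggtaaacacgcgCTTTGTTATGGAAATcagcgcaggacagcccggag
Dll1 promoter, octamer, chr17:15376015-15376062, minus strand: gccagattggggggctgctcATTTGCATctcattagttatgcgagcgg
Jag1 intron, RBPJ motif then octamer, chr2:137098343-137098402, minus strand: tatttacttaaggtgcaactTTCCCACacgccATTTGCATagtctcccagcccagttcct
Notch1 promoter, RBPJ motif then octamer, chr2:26504148-26504229, minus strand: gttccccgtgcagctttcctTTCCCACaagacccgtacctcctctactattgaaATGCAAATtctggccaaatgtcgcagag
Notch3 intron, RBPJ motif, chr17:32162291-32162337, minus strand: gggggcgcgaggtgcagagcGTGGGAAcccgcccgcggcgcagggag
Rbpj exon after the upstream promoter, RBPJ motif, chr5:53556107-53556153, plus strand: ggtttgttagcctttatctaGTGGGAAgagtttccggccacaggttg
Rbpj downstream promoter, RBPJ motif, chr5:53589303-53589349, plus strand: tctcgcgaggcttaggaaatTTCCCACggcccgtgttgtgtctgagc
The RBPJ motif and the octamer are separated by 5 bases in the Jag1 intron and by 27 bases in the Notch1 promoter.

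The 10 members had a median of 16.5 regions, and the 21938 protein-coding genes, counted in windows built the same way, a median of 11 (quartiles 6 and 17). Since windows differ in length, density was compared too. It had a median of 67.8 regions per Mb over the members and 50.0 over protein-coding genes (upper quartile 77.6), and 7 of the 10 members lay above that median. Hes1, Hes5 and Dll3 were the densest, and Jag1, Notch2 and Hey1 lay below the median of protein-coding genes.

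**Figure D1:**
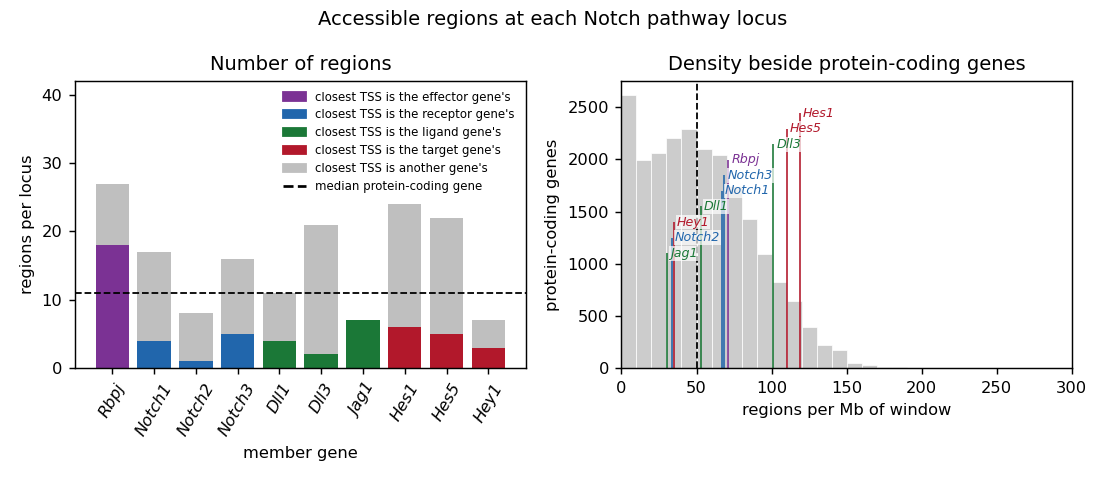
Left, bars give the number of regions at each of the 10 loci, with the regions whose closest TSS is that of the member coloured, and dashed lines mark medians of protein-coding genes. Right, the histogram gives regions per Mb of window for 21938 protein-coding genes, with the members marked, and Hes1 (119 per Mb), Hes5 and Dll3 sit in its upper tail.

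A region near a gene need not lie nearest to it. The closest TSS was that of the member for 55 of the 160 regions (34.4%, 95% Wilson interval 27.5 to 42.02, counting error only), and 54 other genes were closest to the remaining 105. The share depended on which TSSs were counted. With TSSs of protein-coding transcripts alone it was 57.5% (88 of 153 regions), and 50 of the 105 regions closest to another gene were closest to a protein-coding one. With those TSSs alone the closest count moved from 1 to 4 at Notch2, 5 to 10 at Notch3 and 4 to 7 at Dll1. It also moved from 3 to 7 at Hey1, 6 to 23 at Hes1 and 2 to 1 at Dll3. At Dll3, Hes5 and Notch1 the neighbours were mostly protein-coding genes, while at Hes1, Rbpj and Hey1 none was.

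**Figure D2:**
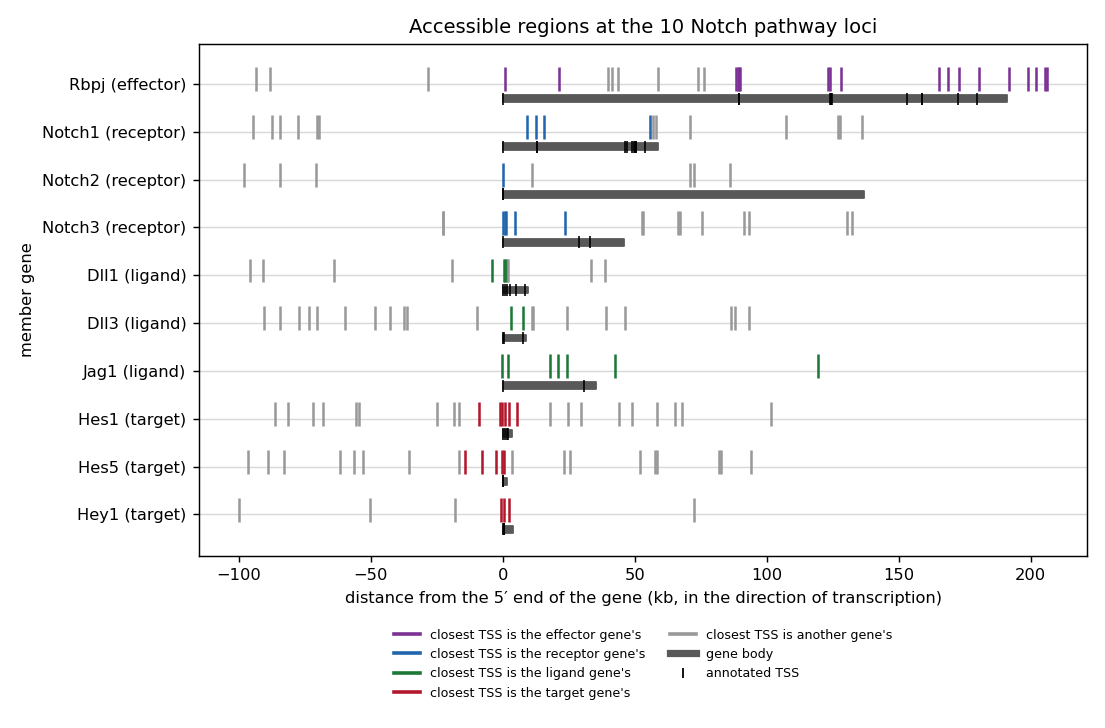
Each line is a locus, drawn by distance in kb from the 5′ end of the gene in the direction of transcription, with the gene body and each region marked. Regions closest to the member spread along the body of Rbpj and lie near the start of Hes1, and 19 of the 21 regions at Dll3 are closest to its neighbours.

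Rbpj encodes the DNA-binding protein through which all Notch receptors reach their target genes. It lies at chr5:53466152-53657362 on the plus strand and had 27 regions, the most of the 10 members with the 100 kb window, at 71.1 per Mb. The order depends on the settings, since with 200 kb Rbpj had 32 regions and Hes5 38, and without regions under 200 bp Rbpj had 20 and Hes5 21. Its 18 closest regions placed it at percentile 99.6 of protein-coding genes, for which the median was 1. The gene itself held most of its regions, with 19 of the 27 in the gene body and 13 of the 27 in introns.

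Rbpj has 12 annotated TSSs, and accessible DNA covered those of a pair of promoters within the gene. The upstream promoter held a 227 bp region at chr5:53554998-53555224 and a 544 bp region at chr5:53555480-53556023, which covers 2 TSSs. The downstream promoter held a 501 bp region at chr5:53589183-53589683 and a 685 bp region at chr5:53589999-53590683, which covers 3 TSSs. The promoters differed in base composition. G and C made up 46.5% of the 544 bp region and 67.6% of the 685 bp region, and the ratio of observed to expected CpG was 0.342 in the former and 0.957 in the latter. The most 5′ TSS of Rbpj, at 53466152, was 723 bp from the nearest region.

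RBPJ motifs occurred in 2 of the 27 regions at Rbpj, 1 near each promoter. The upstream one lies in a 213 bp exonic region, 296 bp downstream of a TSS, and the downstream one 888 bp upstream of the nearest TSS. SOX motifs occurred in 6 regions and the octamer in none. The widest region of the locus, 698 bp at chr5:53671360-53672057, is intergenic, 25971 bp from the nearest TSS of Rbpj, and has 1 SOX motif.

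Notch1, the receptor best known from neural progenitors and T cells, lies at chr2:26457903-26516663 on the minus strand in a neighbourhood of many genes. It had 17 regions (67.0 per Mb), 4 of which were closest to Notch1 and 13 to 8 other genes, among them Egfl7 and Agpat2 with 3 regions each. The widest, 1244 bp at chr2:26444947-26446190, is a promoter of 0610009E02Rik.

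A 678 bp region at chr2:26503614-26504291 covers 2 TSSs of Notch1, and it holds both the RBPJ motif and the octamer. The motifs lie 382 and 347 bp upstream of the TSS. A more 5′ protein-coding TSS of Notch1, at 26516663, was 8848 bp from the nearest region, so the list has a region at the internal promoter and none at that one. RBPJ and octamer together occurred in 268 of all regions (0.330%) and in 2 of the 160, at Notch1 and Jag1.

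Notch2, a receptor expressed in many tissues, lies at chr3:98013527-98150361 on the plus strand and was among the sparsest loci. It had 8 regions (33.8 per Mb), and 1 of them was closest to Notch2. That region, 1123 bp at chr3:98013121-98014243, was the widest of the locus and covers both annotated TSSs. Its centre lies 144 bp downstream of the nearest TSS, past the 100 bp limit used for promoters, so Notch2 was the member without a region centred in its promoter although its start site was accessible. No region at Notch2 had an RBPJ motif or an octamer.

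Notch3, a receptor best known from vascular smooth muscle, lies at chr17:32120820-32166852 on the minus strand and had 16 regions (68.6 per Mb), 5 of them closest to Notch3. Its TSS at 32166852 lay in a region of 154 bp at chr17:32166851-32167004, in which G and C made up 81.2% of bases. Further regions of 274, 150 and 300 bp followed in the gene at 781, 1079 and 4638 bp from the TSS. The start of Notch3 was thus a row of short regions. The 300 bp region held an RBPJ motif, and the widest region of the locus, 723 bp at chr17:32113289-32114011, is a promoter of Gm17276 and held another.

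Among the ligands, Dll1, the Delta ligand that acts in neural progenitors and somites, had an accessible start broken into pieces. It lies at chr17:15367354-15376872 on the minus strand and had 11 regions (52.8 per Mb), near the median of protein-coding genes. Its promoters held regions of 244, 132, 352 and 303 bp, from chr17:15374784-15375027 through chr17:15375119-15375250 and chr17:15375727-15376078 to chr17:15376212-15376514. The gaps between them were 91, 476 and 133 bp. The 244 bp region is closest to the lincRNA gene A930024N18Rik, 94 bp from its TSS, and lies 194 bp downstream of the nearest TSS of Dll1. The 352 bp region covers the protein-coding TSS at 15375976, and its octamer lies 62 bp upstream of that TSS. The most 5′ TSS, at 15376872, was 358 bp from the nearest region.

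The most motif-rich ligand region lies at chr17:15380481-15381193, 3965 bp upstream of the most 5′ TSS of Dll1. This intergenic region of 713 bp holds the composite motif, an RBPJ motif and 2 SOX motifs, and it is the 1 region of the 160 with the composite motif. Between the composite and the RBPJ motif lies a SOX motif, 37 bases from the former and 120 bases from the latter. The widest region of the locus, 850 bp at chr17:15395824-15396673, is closest to Fam120b.

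Dll3, a Delta-like protein that acts in the somites and does not activate Notch from a neighbouring cell, lies at chr7:28293553-28302238 on the minus strand. It had 21 regions (101 per Mb, percentile 89.5), yet 2 of them were closest to Dll3 and 16 to 9 other protein-coding genes. Its protein-coding TSS at 28302238 was 2793 bp from the nearest region, and no annotated TSS of Dll3 lay in a region. The other 9 members each had at least 1 TSS, of any transcript type, in a region. The region assigned to its promoters, 157 bp at chr7:28294566-28294722, lies near the start of a retained-intron transcript at the 3′ end of the gene. No region at Dll3 had an RBPJ motif, and the widest, 811 bp at chr7:28392423-28393233, is closest to Med29.

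Jag1, the Jagged ligand, was the opposite case. It lies at chr2:137081456-137116644 on the minus strand and had 7 regions (30.3 per Mb), each of which was closest to Jag1, a count at percentile 94.3. The region over its TSS, chr2:137116368-137117780, was 1413 bp wide and the widest of the 160. In an intron, 18050 bp downstream of the TSS, a region of 521 bp at chr2:137098334-137098854 holds the RBPJ motif 5 bases from an octamer.

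**Figure D3:**
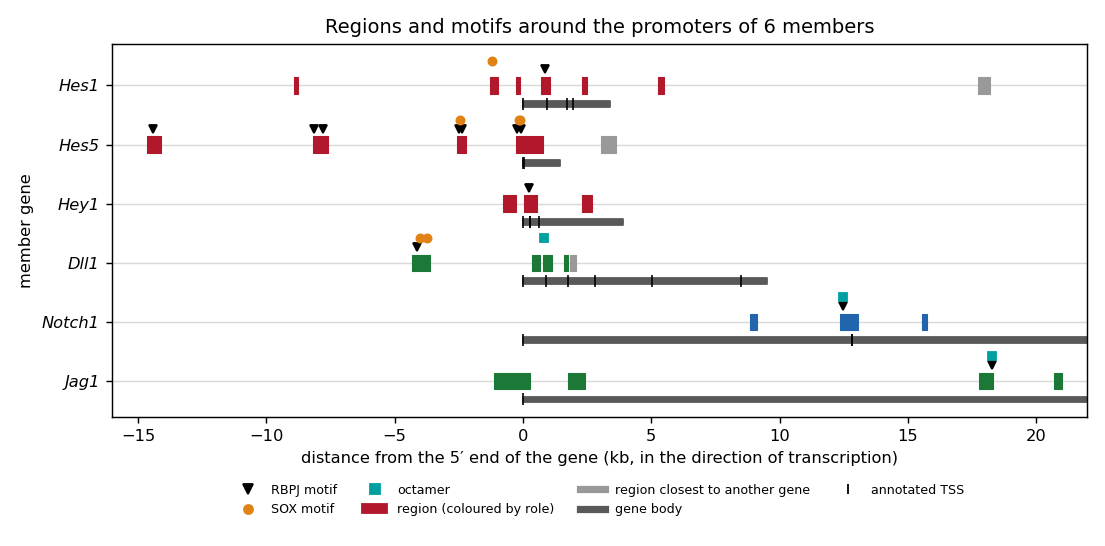
Regions around the start of Hes1, Hes5, Hey1, Dll1, Notch1 and Jag1 by distance in kb from the 5′ end of the gene, with annotated TSSs and RBPJ, SOX and octamer matches marked. Jag1 has 1 wide region of 1413 bp at its start and Dll1 has 4 short ones, 1 of them closest to another gene, while the RBPJ matches of Hes5 run from its promoter to the region 14383 bp upstream and the 34 bp gap at its start is too narrow to see.

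The target genes encode repressors that hold back neuronal differentiation. Hes1, which oscillates in neural progenitors and ES cells, lies at chr16:30064384-30067796 on the plus strand and had the densest locus of the 10 with the 100 kb window, with 24 regions (119 per Mb, percentile 95.2). With 200 kb it had 35 regions, beside 38 at Hes5 and 37 at Dll3. Without regions under 200 bp it had 17, beside 21 at Hes5. Of the 24 regions, 16 were intergenic, 6 were closest to Hes1 and 18 to neighbours that encode no protein, such as the pseudogene Gm20040 and the lincRNA gene Gm1968. No protein-coding gene other than Hes1 was closest to any of them, and with TSSs of protein-coding transcripts alone Hes1 was closest to 23 of 23. The widest, 724 bp at chr16:30047283-30048006, lies upstream of the gene.

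The promoters of Hes1 held a 168 bp region at chr16:30064103-30064270 and a 338 bp region at chr16:30065095-30065432. The latter covers the protein-coding TSS at 30065340 and holds a facing pair, with the RBPJ motif GTGGGAA as 1 arm and the looser match GTGTGAA as the other. Such a pair occurred in 2 of the 160 regions (1.25%, 0.343 to 4.44), beside 0.0567% of all regions. The comparison rests on these 2 regions and was not tested. Of the 2, 1 is this promoter region of Hes1. The other lies outside the Hes1 locus and promoters, and is closest to another gene. RBPJ motifs occurred in 3 of the 24 regions at Hes1 and SOX motifs in 8, the most SOX regions of the 10 loci. With CATTGT alone this rank turned. A match then occurred in 8 of the 27 regions at Rbpj and in 8 of the 53 target regions.

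Hes5, a target that follows Notch activity closely in neural progenitors, lies at chr4:154960923-154962371 on the plus strand and had 22 regions (109.97 per Mb, percentile 92.6). Of these 5 were closest to Hes5 and 8 to Plch2. Its start site falls between a promoter region of 260 bp, chr4:154960637-154960896, and a region of 775 bp in its exon, chr4:154960931-154961705, the widest of the locus. The gap between them is 34 bp, and the protein-coding TSS in it is 8 bp from the nearer region.

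Hes5 had the most RBPJ motifs of the 10 loci, with 9 motifs in 6 of its 22 regions. Of its 5 closest regions, the 4 upstream of the start held 7 of them. The promoter region had 2 RBPJ and 2 SOX motifs, the region 2394 bp upstream had 2 RBPJ motifs and 1 SOX motif, the region 7879 bp upstream had 2 RBPJ motifs, and the region 14383 bp upstream had 1. These upstream regions lie at chr4:154958340-154958717, chr4:154952759-154953329 and chr4:154946271-154946809. The 3 regions with at least 2 RBPJ motifs were all at Hes5, out of 160 at the loci (1.88%) and 574 in the whole list (0.707%). The exonic region of 775 bp had none, and the other 2 motifs lie 82544 and 93903 bp downstream of the start, in promoter regions closest to Plch2.

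Hey1, a repressor of the related HEY family, lies at chr3:8663359-8667256 on the minus strand and had 7 regions (34.9 per Mb), 3 of them closest to Hey1. Its promoters held regions of 484 bp at chr3:8666713-8667196 and of 510 bp at chr3:8667510-8668019, the widest of the locus. The protein-coding TSS at 8667256 falls in the 313 bp gap between them, 60 bp from the nearer. RBPJ motifs occurred in 3 of the 7 regions at Hey1. Of these, 1 is the 484 bp region, whose motif lies in an annotated UTR and is not printed, and the other 2 are closest to other genes.

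Across the loci, RBPJ motifs were found in 21 of 160 regions (13.1%, 8.75 to 19.2), beside 9.48% of all regions and 8.61% of all regions weighted to the same mix of class and width. The targets stood above the other roles in this count, with 12 of 53 regions (22.6%, 13.5 to 35.5). Receptors had 4 of 41 (9.76%), ligands 3 of 39 (7.69%) and the effector 2 of 27 (7.41%). With looser motifs the roles lay closer together, at 41.5% for targets and 38.5% for ligands with TGGGAA, and at 30.2% for targets and 25.9% for the effector with GTGNGAA. With the longer CGTGGGAA or TGTGGGAA, targets had 22.6% and the other roles at most 7.69%. The count rests partly on Hes5. Without that locus, an alternative chosen after seeing the data, 15 of 138 regions had the motif (10.9%), and 6 of 31 target regions (19.4%, 9.19 to 36.3). No test was made of these shares, and the intervals of the roles overlap. These intervals count regions as independent, although the effector is Rbpj alone and the targets are Hes1, Hes5 and Hey1. Of the 53 target regions, 14 were closest to their target gene, and so were 6 of the 12 with the motif.

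**Figure D4:**
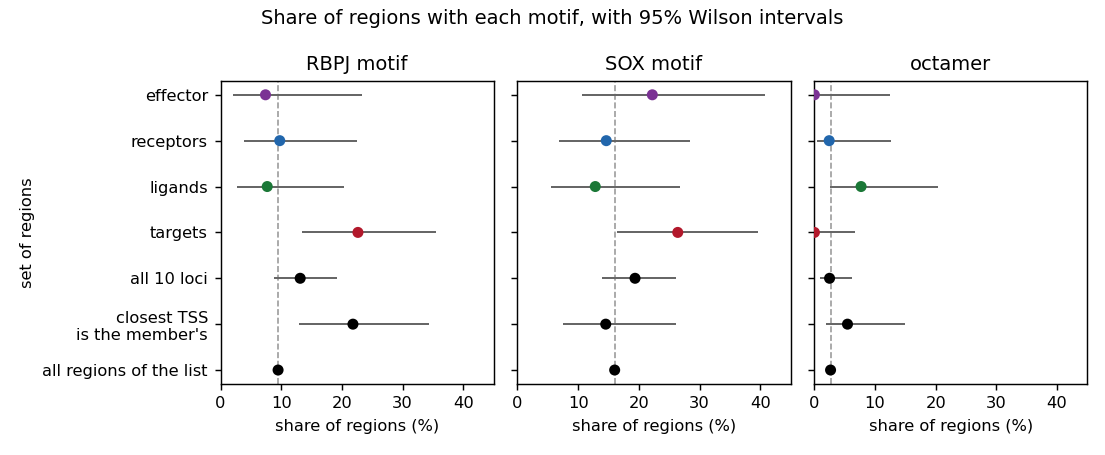
Percent of regions with an RBPJ motif, a SOX motif or an octamer, by role of the member, with 95% Wilson intervals, beside all 81132 regions (dashed line). The RBPJ share is 22.6% at the targets and between 7.41% and 9.76% at the other roles, and the intervals overlap.

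RBPJ motifs occurred in 12 of the 55 regions closest to their member (21.8%, 12.9 to 34.4) and in 9 of the 105 closest to another gene (8.57%), and all regions of the same mix as the former had 8.24%, a comparison with no test. Among the 14 regions closest to a target gene, 6 had the motif, 4 of them at Hes5 and 1 each at Hes1 and Hey1. Without Hes5 the share over closest regions was 16% (8 of 50, 8.34 to 28.5). SOX motifs occurred in 31 of 160 regions (19.4%, 14 to 26.2), beside 16.02% of all regions and 14.4% of all regions of the same mix of class and width. The order beside the 16.02% turned with a 50 kb window (15.5% at the loci) and the gene body alone (6.12%). It also turned with CATTGT alone (15%, all regions 17.1%). Regions closest to their member had SOX motifs in 8 of 55 (14.5%), and those closest to another gene in 23 of 105 (21.9%). The octamer occurred in 4 of the 160 regions (2.5%, 0.976 to 6.25), beside 2.66% of all regions. This order turned beside all regions of the same mix of class and width (2.41%). It also turned with a 50 kb window (2.91%) and the gene body alone (6.12%). The octamers were at Notch1, Dll1, Dll3 and Jag1, and the 53 target regions had none.

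The regions of the loci had much the widths of the whole list. Their median width was 340.5 bp (quartiles 214 and 528, range 132 to 1413), beside 355 bp for all regions (quartiles 222 and 564). A difference showed at the members' own promoters. The 17 regions centred there had a median of 338 bp, beside 600 bp for all 17004 regions centred in a promoter and 533.5 bp for 30 promoter regions of neighbouring genes at the loci. Several member promoters were split into short regions, and joining neighbours at most 500 bp apart turned the order around. The joined regions, an alternative chosen after seeing the data, numbered 10 and had a median of 992.5 bp, beside 705 bp for all promoter regions joined the same way.

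**Figure D5:**
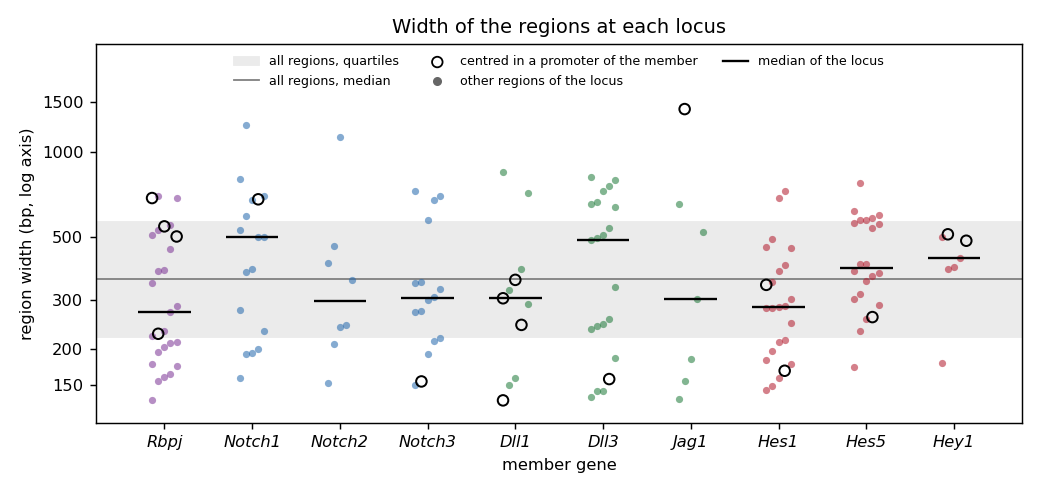
Width of each region in bp on a log axis, by locus, with regions centred in a promoter of the member marked, beside the quartiles of all regions. Widths run from 132 to 1413 bp, and the widest is the region over the TSS of Jag1.

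By position, 47 of the 160 regions were centred in a promoter of any gene (29.4%, 22.9 to 36.8; all regions 21.0%), 20 in exons (12.5%; 8.76%), 43 in introns (26.9%; 35.0%) and 50 between genes (31.2%; 35.2%). Of the 10 members 9 had a region centred in a promoter of their own, and 12649 of 21938 protein-coding genes did (57.7%). A TSS of any transcript type lay in a region at 9 of 10 members as well, with Notch2 in and Dll3 out. At Hes5 and Hey1 this held only for transcripts not annotated as protein-coding. The same count was not made over all protein-coding genes, so it has no share to be read against. The window edge passed close to some regions. At Hey1 the outermost region lay 200 bp inside the edge and the next one 545 bp outside it, and at Hes1 the outermost lay 336 bp inside.

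Another 53 genes of the pathway were taken from a fixed list, and most of them had accessible promoters. Of these 46 had a region centred in a promoter (86.8%, beside 57.7% of protein-coding genes, a difference with no test), and their median was 17 regions and 73.4 per Mb. All 10 genes of receptor cleavage, such as Adam10 and Ncstn, and all 11 inhibitors and turnover factors, such as Numb and Fbxw7, had one. So had 10 of 12 nuclear partners and co-repressors of RBPJ, 4 of 5 genes of receptor glycosylation, 3 of 4 of ligand endocytosis, 3 of 4 further ligands, the receptor Notch4 and 4 of 6 further HES and HEY genes. Spen, a co-repressor of RBPJ, had the most regions (34), and the ligand Jag2 (29), the inhibitor Numbl (28) and Neurl1a (27) were also among those with many. The 7 without a promoter region were Dlk2, Hes3, Hes7, Maml3, Neurl1b, Poglut1 and Snw1. This depends on how a promoter is drawn, since 49 of the 53 had a region that overlaps a promoter (chosen after seeing the data) and 50 had a region centred within 1 kb of a TSS, while 43 had one with TSSs of protein-coding transcripts alone and 44 without regions under 200 bp.

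As a check of the cell type, promoters of marker genes were looked up, which shows accessibility and not expression. A region was centred in a promoter of 6 of 8 ES cell markers, Pou5f1, Sox2, Esrrb, Zfp42, Klf4 and Dppa5a, and of neither Nanog nor Tfcp2l1, although a region overlapped a promoter of the latter. The fibroblast markers Col1a1, Col1a2 and Thy1 also had one and Col3a1 had none (3 of 4), so promoter regions did not tell these cell types apart.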

How the data were processed

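The authors aligned ATAC-seq reads of 12 libraries to mm10 (STAR 2.5.3a), removed duplicates (Picard), found peaks per library (MACS2 2.1.1.20160309), merged them (BEDOPS) and discarded peaks overlapping a ChIP-seq input. The deposited list gives, for each merged region, its position in bp and no other value. Depth is unknown from it, and the 4 ChIP-seq samples were not used here.

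Regions were placed on GENCODE M21 by their centre, as promoter (1000 bp upstream to 100 bp downstream of any TSS), then exon, intron or intergenic, with Python 3.11.15, numpy 2.4.6, pandas 2.3.3 and scipy 1.17.1. Plots used matplotlib 3.10.9. Motif and count code was tested on simulated data. Shares carry 95% Wilson intervals. No test was made, since the list holds no value per library.

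Members and lists were chosen with earlier results of these data known. The genes named were the 10 members, genes among the 5 others of the pathway with the most regions, and each without a promoter region. The regions named were chosen among those centred in a member's promoter, the widest of each locus, and those with a facing pair, a composite or at least 2 RBPJ motifs. Other genes and regions named, among them those of the Jag1 and Notch3 introns and the single RBPJ motifs shown at Rbpj and Hes5, were chosen after their values were seen.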

Additional observations from a re-analysis of the deposited data

How the results depend on the processing

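Of 63 alternatives to the 8 main results, 48 stayed within the interval or count limit and 15 moved. This tally makes the results look steadier than they are. Any overlap with the window selected the same 160 regions, so its results at the loci could not move. The count limit was wide, since 126 regions without those under 200 bp, in place of 160, stayed within it. The window set the count of regions, with 103 at 50 kb, 258 at 200 kb and 49 in the gene body alone, and the share closest to the member, with 52.4%, 21.3% and 73.5%. The gene body alone gave a SOX share of 6.12%. With TSSs of protein-coding transcripts alone the closest share was 57.5% and the promoter share 18.3% (all regions 15.2%). The promoter share was 40.0% with 1 kb to both sides (all regions 28.2%) and 61.2% with 5 kb (45.7%). Counting any overlap with a promoter, chosen after seeing the data, gave 35% (25.2%). The median width without regions under 200 bp was 388.5 bp. The shorter RBPJ motif TGGGAA gave 35.6% (all regions 33.2%), GTGNGAA 23.8% (20.5%), the longer CGTGGGAA or TGTGGGAA 11.2% (4.05%), and the octamer with 1 mismatch 21.2% (25.9%). Wider windows and shorter motifs take in more regions by construction, and the cause of the lower SOX share was not tested. Counts per member and the width at own promoters moved in 23 of 71 alternatives, 9 of them with the gene body alone. Joining regions at most 500 bp apart, chosen after seeing the data, reversed the order of widths at own promoters and all promoters, from 338 and 600 bp to 992.5 and 705 bp. No paired analysis was possible because the list holds no value per library. A region missing from the list cannot be told from one with few reads.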

Other observations

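Base composition and repeats also set the loci beside the whole list. G and C made up a median of 57.4% of bases at the 10 loci and 51.9% over all regions, and among the members the medians ran from 47.4% at Rbpj to 63.3% at Notch1. Regions with over 50% of bases in repeats numbered 9 of 160 (5.62%, 2.99 to 10.3), beside 13.7% of all regions.

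The RefSeq promoter table, which gives 300 bases around each start, has 10 entries for 8 of the members and none for Hes1 or Hey1. Regions overlapped 8 of the 10 entries, and the share over all entries was not computed. Both entries of Rbpj lie in the same region of 685 bp, so the entries are not independent. Those without a region were that of Dll3 and an entry of Dll1. The RBPJ motif occurred in the entry of Hes5, which has 2, and in 2097 of all 32851 entries (6.38%), and 84 entries (0.256%) had at least 2. The octamer occurred in an entry of Dll1 and in 1.74% of all entries.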
